A study of Mus musculus with 4 samples.

Results

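The cytosolic heat-shock chaperones examined here are 10 genes, *Hspa1a*, *Hspa8*, *Hsph1*, *Hsp90aa1*, *Hsp90ab1*, *Dnaja1*, *Dnajb1*, *Bag3*, *Hspb1* and *Hsf1*, out of 20133 genes that could be named on the array. They were chosen by name as the major chaperones of the cytosol, the cochaperones that work with them and the transcription factor that controls them. The rule that picks their probes uses no measured value, but the genes were chosen with earlier results of these data known. All 10 had at least 1 probe, and together they had 14 probes, because *Hspa8* had 3 probes and *Hsph1* and *Dnaja1* had 2 each. Of the 14 probes, 13 were well above background on every array, and the exception was the single probe of *Hspa1a*.

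The cells were J774.1, a mouse monocyte-macrophage line, kept for 4 hours with a proteasome inhibitor at 1 μM or with DMSO, the solvent, as the control. The inhibitors were MG132, a peptide aldehyde, epoxomicin, a peptide epoxyketone directed at the 20S proteasome, and ONX0914, also a peptide epoxyketone, directed at the β5 and β5i subunits. On one array the treatment is labelled ONX-0912, whereas its treatment protocol and the paper give the compound as ONX0914, which is the name used here. The signals cannot tell which name is right, so all values given for ONX0914 rest on the protocol and the paper. Each condition was measured on 1 single-color array, so the 4 arrays hold no replicate, and neither a test nor an error between cultures could be given for any value below. All differences from DMSO share the same DMSO array. A higher signal can come from more RNA per cell or from more cells that express the gene, and these cannot be told apart in a whole culture.

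The 4 arrays lay on 1 slide and were scanned together, no spot was saturated, and between 60.3% and 63.1% of the spots were well above background. Signals were put on the log2 scale and shifted by the 75th percentile of their array, which lay between 1317 and 1522 intensity units. Signals below are given before this shift, and differences and folds after it. The scanner software gave a reading error of about 10.0% for a bright spot, equal to 0.20 on the log2 scale for a difference between arrays, and this error covers the reading of a spot only. All 11 macrophage markers with a probe were well above background on every array, and their summed signal was 632928 under DMSO, 431037 under MG132, 476447 under epoxomicin and 566445 under ONX0914. Of 11 markers of T cells, B cells, fibroblasts, epithelium and endothelium, 4 or 5 were above background per array, and their summed signal was between 954 and 1171. *Cd3e*, at 849 under DMSO, *Col1a2*, *Pecam1* and *Cdh5* were above background on every array, and *Krt18* was under epoxomicin alone. *Epcam*, *Cdh1*, *Ms4a1*, *Cd3g*, *Col1a1* and *Col3a1* were above background on none. The part of the lower macrophage markers in the chaperone values was not tested.

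Heat-shock chaperones bind proteins that are unfolded or newly made and help them fold or pass on to degradation. Hsp70 proteins work in cycles of ATP hydrolysis that J-domain proteins start and exchange factors such as Hsp110 and BAG proteins end, while Hsp90 acts later on partly folded clients. The transcription factor HSF1 drives their inducible members in cells that hold misfolded protein, as after heat or after a block of the proteasome. It binds heat-shock elements, inverted repeats of the letters NGAAN, in the promoters of its target genes.

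Promoter letters were available from RefSeq (GRCm38.p6) for 6 of the 10 genes, in windows from 250 bases before to 50 bases after each transcription start. The search covered 2 repeats, spelled GAANNTTC or TTCNNGAA, and 3 repeats, in which the first spelling is followed by NNGAA or the second by NNTTC. Each 2-repeat form is its own reverse complement and the 3-repeat forms are the reverse complements of each other, so both strands were covered. Every 3-repeat match also holds 2-repeat matches. The stretches with the matches are shown because heat-shock elements are known as the point of contact between HSF1 and its target genes. Whether HSF1 binds any of these matches was not tested. The stretches run 5′ to 3′ on the strand of the gene, with the matched letters in capitals.
*Hspa1a*, chr17:34972157-34972306, minus strand: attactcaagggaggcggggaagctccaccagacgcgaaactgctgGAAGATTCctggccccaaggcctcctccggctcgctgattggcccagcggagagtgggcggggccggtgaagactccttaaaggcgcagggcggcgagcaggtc
*Hspb1*, chr5:135887769-135887918, plus strand: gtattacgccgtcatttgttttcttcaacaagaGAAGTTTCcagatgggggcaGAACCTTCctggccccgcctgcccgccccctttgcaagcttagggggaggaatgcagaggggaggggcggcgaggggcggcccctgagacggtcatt
*Dnaja1*, chr4:40722318-40722467, plus strand: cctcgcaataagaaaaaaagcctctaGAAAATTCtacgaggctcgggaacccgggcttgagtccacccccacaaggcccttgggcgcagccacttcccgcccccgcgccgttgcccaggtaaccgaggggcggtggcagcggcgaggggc
*Hsph1*, chr5:149636337-149636486, before the start, minus strand: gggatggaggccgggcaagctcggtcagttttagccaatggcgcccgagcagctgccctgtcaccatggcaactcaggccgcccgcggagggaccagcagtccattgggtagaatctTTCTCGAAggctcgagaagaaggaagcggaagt
*Hsph1*, chr5:149636287-149636312, after the start, minus strand: aaatgctgcagaTTCTGGAAAGTTCt
*Bag3*, chr7:128523603-128523632, plus strand: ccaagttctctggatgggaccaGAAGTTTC

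The 3-repeat form was found for *Hsph1* alone among the 6 genes, with its first base 37 bases after one annotated start and 16 bases after the other. Over all 27025 genes with a window, 0.662% held the 3-repeat form. The 2-repeat form was present for 5 of the 6 genes (83.3%), against 17% of all genes and 22.4% of 85 other chaperone genes with a window. Counted from the start, the match began at -104 for *Hspa1a*, at -117 and -97 for *Hspb1*, at -124 for *Dnaja1* and at 43 for *Bag3*. *Hsph1* held a further 2-repeat match before its starts, at -33 from one and -54 from the other, apart from its 3-repeat match. The windows of *Dnajb1* held neither form. These matches describe letters in a short window and say nothing about binding in J774.1 cells. Windows for *Hspa8*, *Hsp90aa1*, *Hsp90ab1* and *Hsf1* were not analysed here.

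With MG132, 5 of the 10 chaperone genes were at least 2-fold higher than under DMSO (*Hspa1a*, *Hsph1*, *Hsp90aa1*, *Dnaja1* and *Bag3*), and none was lower by that much. Over all 13791 genes tested in this comparison, 6.87% lay at least 2-fold above DMSO and 4.1% at least 2-fold below it. With epoxomicin, the same 5 genes and *Dnajb1* and *Hspb1* reached 2-fold, which made 7 of 10, and none was lower, against 8.05% above and 4.85% below of 13889 genes. With ONX0914, 2 of 9 measured genes, *Hsph1* and *Bag3*, reached 2-fold and none was lower, against 3.17% above and 1.45% below of 13802 genes. Scaled by the median of 12 reference genes instead, both stayed under the threshold, at 0.91 and 0.98 on the log2 scale. *Hspa1a* was not well above background under ONX0914 or DMSO and gave no difference there. Its place in the MG132 and epoxomicin counts rests on the arrays where it was high, and among the 9 genes above background on every array 4 and 6 reached 2-fold. Under epoxomicin the count was 6 of 10 with quantile normalization or a shift to the array median, where *Hspb1* missed 2-fold. The median difference of the chaperone genes on the log2 scale was 1.05 under MG132, 1.67 under epoxomicin and, over 9 genes, 0.31 under ONX0914, beside -0.05, -0.07 and -0.03 over all genes tested. Without *Hspa1a* it was 0.73 under MG132 and 1.63 under epoxomicin.

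**Figure D1:**
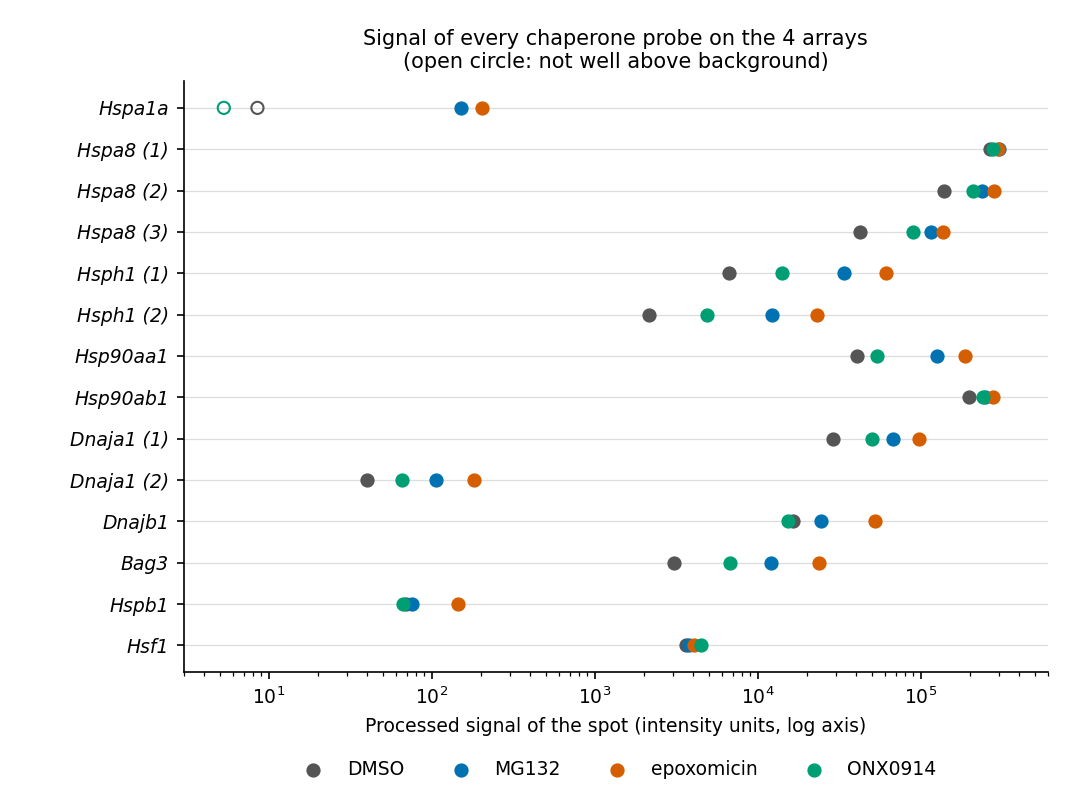
Processed signal (x axis, intensity units on a log axis) of each of the 14 chaperone probes (y axis; numbers in parentheses count the probes of a gene) on the DMSO, MG132, epoxomicin and ONX0914 arrays. Before the shift between arrays, epoxomicin gave the highest signal for 12 of the 14 probes, and its array also had the highest 75th percentile (1522). The share of all probes that were highest on that array was not counted. After the shift, *Hsp90ab1* was highest under MG132 (7.55 against 7.51 under epoxomicin, log2). *Hspa1a* was not well above background (open circles) under DMSO and ONX0914.

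*Hsf1* encodes the transcription factor itself, whose activity is known to be set mainly at the protein level. Its signal was 3644 under DMSO, 3762 under MG132, 4049 under epoxomicin and 4456 under ONX0914. These signals lay close together, with log2 differences from DMSO of 0.20, 0.10 and 0.31 in that order. It was the only one of the 10 genes that was higher under ONX0914 than with either of the other inhibitors, by 0.11 on the log2 scale over MG132 and by 0.21 over epoxomicin, which was also the direction of 54.2% and 55.7% of all genes.

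The Hsp70 and Hsp110 genes held both large and small differences. *Hspa1a* encodes the stress-inducible Hsp70, known to be scarce in unstressed cells. Its signal was 8.52 under DMSO and 5.29 under ONX0914, neither well above background, and 151 under MG132 and 203 under epoxomicin. It was therefore detected with 2 of the 3 inhibitors only. Against the lowest signal that counted as above background, it was at least 11.4-fold higher under MG132 and at least 13.3-fold higher under epoxomicin. These bounds are 3.51 and 3.73 on the log2 scale, and they came to 1.52 and 1.55 under a normexp background correction fitted without outlier spots. *Hspa1b*, a near-identical copy of *Hspa1a*, had no probe that could be named, and the part of its transcripts in this signal was not tested.

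*Hspa8* encodes the constitutive Hsp70, or Hsc70, one of the most abundant proteins of the cytosol. Its brightest probe read 265027 under DMSO, 303011 under MG132, 299838 under epoxomicin and 275845 under ONX0914. The second probe read 138358, 237345, 280625 and 209246 in the same order, and the third read 42317, 115091, 136011 and 90200. The 3 probes gave different answers. The difference from DMSO was 1.27-fold, 1.91-fold and 3.03-fold under MG132, 1.09-fold, 1.95-fold and 3.10-fold under epoxomicin, and 1.05-fold, 1.53-fold and 2.16-fold under ONX0914, from the brightest to the dimmest probe. The brightest probe stood for the gene under the rule applied to all genes, and under that rule *Hspa8* was not counted as 2-fold higher, whereas under its dimmest probe it was counted with all 3 inhibitors.

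Large differences were rare among probes as bright as that of *Hspa8*. Of 731 probes with a DMSO signal of at least 100000, 1 was at least 2-fold higher under MG132 (0.137%), 2 under epoxomicin (0.274%) and 1 under ONX0914 (0.137%). For probes between 10000 and 100000, where the third *Hspa8* probe lies, these shares were 2.22%, 2.49% and 0.924%, and for probes under 1000 they were 9.4%, 10.6% and 4.49%. The highest signal on any array was 574902, no spot was called saturated, and whether the response of the brightest spots was compressed was not tested.

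**Figure D2:**
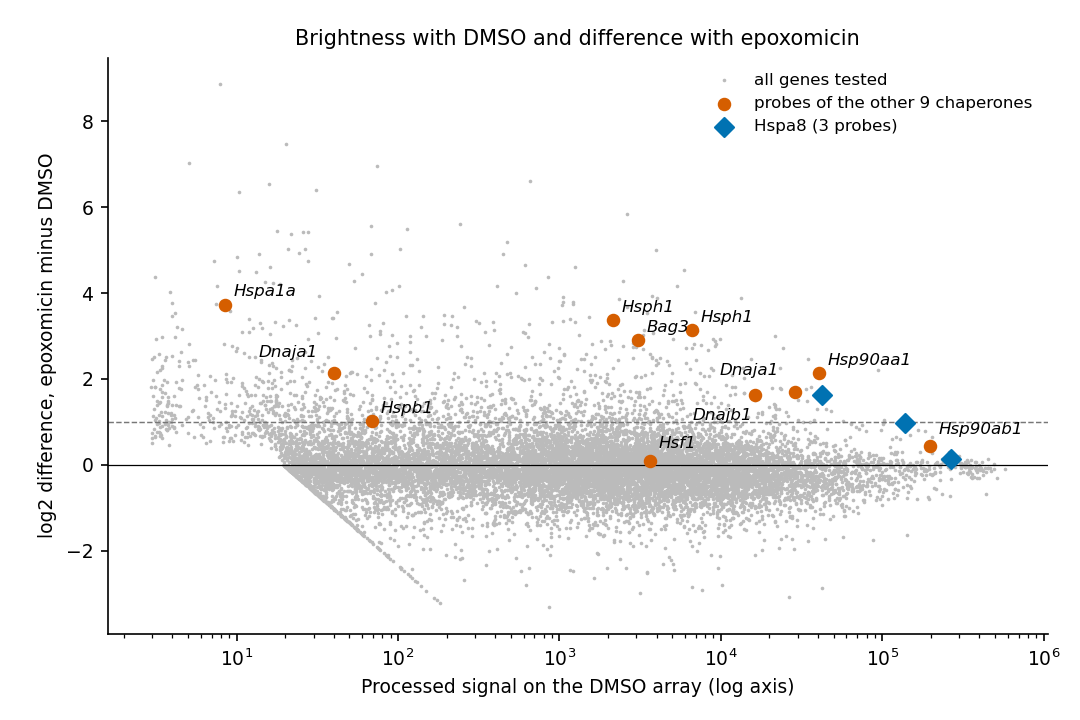
Signal on the DMSO array (x axis, log axis) against the log2 difference of epoxomicin from DMSO (y axis) for all genes tested (gray), the 3 *Hspa8* probes (diamonds) and the 11 probes of the other 9 chaperone genes (circles; *Hspa1a* is a lower bound), with a dashed line at 2-fold. The diamonds fall from 1.63 to 0.97 and 0.12 on the log2 scale as the DMSO signal grows from 42317 to 265027.

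*Hsph1* encodes Hsp105, the stress-inducible Hsp110 that exchanges nucleotide on Hsp70, and it had the largest measured differences of the 10 genes under MG132 and epoxomicin. Under ONX0914 its order against *Bag3* (1.16 on the log2 scale) depended on the probe, at 1.09 and 1.20. Both gaps were smaller than the reading error. The brighter *Hsph1* probe read 6658 under DMSO, 33861 under MG132, 60860 under epoxomicin and 14037 under ONX0914. Its other probe read 2142, 12179, 23098 and 4871 in the same order. All inhibitor arrays lay above DMSO on both probes, and the order of the arrays was the same. The brighter probe exceeded DMSO 5.66-fold under MG132, 8.81-fold under epoxomicin and 2.14-fold under ONX0914, and the other probe 6.33-fold, 10.4-fold and 2.30-fold. Among 12730 genes above background on all arrays, *Hsph1* ranked 121 by increase under MG132, 78 under epoxomicin and 243 under ONX0914.

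The 2 Hsp90 genes differed in the size of their response. *Hsp90aa1* encodes the stress-inducible Hsp90 alpha. Its signal was 40571 under DMSO, 125901 under MG132, 185890 under epoxomicin and 54233 under ONX0914. It was thus 3.45-fold, 4.41-fold and 1.35-fold higher than under DMSO, respectively. *Hsp90ab1* encodes the constitutive Hsp90 beta. Its signal was 198946 under DMSO, 247074 under MG132, 277683 under epoxomicin and 242565 under ONX0914, and the differences were 1.38-fold, 1.34-fold and 1.24-fold. Its probe belongs to the range over 100000 in which few probes differed.

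**Figure D3:**
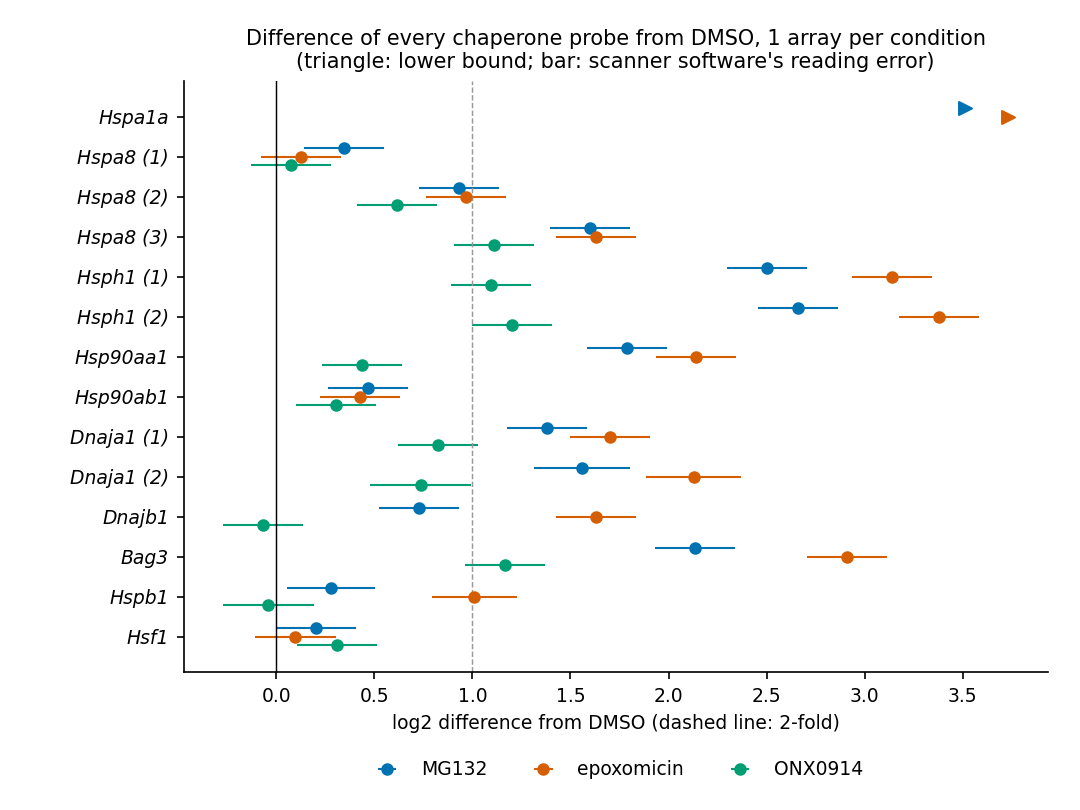
Log2 difference from DMSO (x axis) of each chaperone probe (y axis) under MG132, epoxomicin and ONX0914, with bars for the reading error of the scanner software (about 0.20 for bright probes) and triangles for lower bounds. With ONX0914, the probes of *Hsph1*, *Bag3* and the dimmest of *Hspa8* lie at or beyond the dashed 2-fold line.

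The J-domain genes *Dnaja1* and *Dnajb1* encode cofactors of the Hsp40 type that deliver clients to Hsp70 and start its ATP hydrolysis. The brighter *Dnaja1* probe read 28775 under DMSO, 67248 under MG132, 97089 under epoxomicin and 50318 under ONX0914, and the dim probe read 40.0, 106, 182 and 65.8. Both probes had the same order of arrays, with differences of 2.60-fold, 3.25-fold and 1.77-fold on the bright probe and 2.95-fold, 4.38-fold and 1.67-fold on the dim one. *Dnajb1* read 16389 under DMSO, 24360 under MG132, 52659 under epoxomicin and 15432 under ONX0914. It exceeded DMSO 1.65-fold under MG132 and 3.10-fold under epoxomicin, while the ONX0914 array was slightly below the DMSO array, with a log2 difference of -0.07 that was within the reading error. *Dnajb1* thus ranked 357 among 12730 genes under epoxomicin and 7268 under ONX0914.

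*Bag3* encodes a BAG cochaperone that releases clients from Hsp70 and routes misfolded protein to autophagy. Its signal was 3064 under DMSO, 12091 under MG132, 23869 under epoxomicin and 6778 under ONX0914. All 3 inhibitor arrays lay above DMSO, by 4.39-fold, 7.50-fold and 2.24-fold. With 1 probe standing for each gene, *Bag3* and *Hsph1* were the only genes of the 10 that reached 2-fold with all 3 inhibitors, which 1.96% of 13487 genes did.

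*Hspb1* encodes the small heat-shock protein Hsp27, an ATP-independent chaperone that holds unfolded protein. It was dim, with a signal of 69.0 under DMSO, 75.2 under MG132, 144 under epoxomicin and 66.3 under ONX0914. The epoxomicin array lay 2.01-fold over DMSO, a value at the threshold, and MG132 and ONX0914 differed from DMSO by 0.28 and -0.04 on the log2 scale. All of these differences depended on how the background was treated. Under a normexp correction the values in the order MG132, epoxomicin and ONX0914 were -0.84, -0.53 and -0.92, and with the correction fitted without outlier spots they were 0.28, 0.59 and 0.21. The epoxomicin difference was also just under 2-fold with quantile normalization and with a shift to the array median (0.97).

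The inhibitors were given at the same dose and for the same time, so the chaperone signals were also compared directly between them, in 3 pairs that do not involve the DMSO array. None of the 10 genes differed by 2-fold between epoxomicin and MG132, where 0.807% of 13626 genes lay at least 2-fold above MG132 and 0.705% at least 2-fold below it. Of the 10 genes, 7 were higher under epoxomicin, beside 50.7% of all genes, and the median log2 difference was 0.34. *Dnajb1* differed by 0.90 on the log2 scale, *Bag3* by 0.77, *Hspb1* by 0.73, *Hsph1* by 0.64, *Hsp90aa1* by 0.35, *Dnaja1* by 0.32 and *Hspa1a* by 0.22. *Hspa8* differed by -0.22 on its brightest probe and by 0.03 on each of the other probes. The differences of *Hsp90ab1* and *Hsf1*, -0.04 and -0.10, were within the reading error. Without scaling between the arrays the median was 0.55, and *Dnajb1* then passed 2-fold with a difference of 1.11.

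ONX0914 and epoxomicin are both peptide epoxyketones, and this pair showed the widest gap. With ONX0914, 6 of 10 genes were at least 2-fold lower than under epoxomicin, and none was higher, beside 4.3% lower and 1.6% higher of 13791 genes, and the median log2 difference was -1.37. *Hspa1a* was at least 10.0-fold higher under epoxomicin. It was not well above background under ONX0914, so its place in this count and median rests on the epoxomicin array. The pairs between inhibitors were not run under normexp. Against DMSO, the *Hspa1a* difference with epoxomicin was 1.55 on the log2 scale under normexp without outlier spots. *Hsph1* was 4.12-fold higher under epoxomicin, *Bag3* 3.35-fold, *Hsp90aa1* 3.26-fold, *Dnajb1* 3.25-fold and *Hspb1* 2.07-fold, which a shift to the array median brought just under 2-fold. Under normexp, *Hspb1* differed from DMSO by -0.53 with epoxomicin and by -0.92 with ONX0914 on the log2 scale. Without outlier spots these values were 0.59 and 0.21. The place of *Hspb1* in this count was not tested under either correction. *Dnaja1* was 1.83-fold higher on its bright probe and 2.62-fold higher on its dim probe. The genes that differed little were the bright *Hspa8* (-0.05 on its brightest probe and -0.52 on its dimmest, log2), *Hsp90ab1* (-0.12) and *Hsf1* (0.21).

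Between ONX0914 and MG132, which differ in the reactive group, 3 of 10 genes were at least 2-fold lower under ONX0914, and none was higher by that much, beside 2.92% lower and 1.1% higher of 13706 genes. These were *Hspa1a*, at least 8.58-fold, *Hsph1*, 2.65-fold, and *Hsp90aa1*, 2.55-fold. The place of *Hspa1a* in this count and in the median rests on the MG132 array, since it was not well above background under ONX0914. Its bound was not run under normexp. *Bag3* lay just inside the threshold at 1.96-fold and beyond it with quantile normalization (-1.04 on the log2 scale), followed by *Dnajb1* at 1.73-fold and *Dnaja1* at 1.47-fold. The median log2 difference was -0.67, beside 0.04 over all genes tested. Of the 10 genes, 9 were lower under ONX0914, the exception being *Hsf1*, while 54.2% of all genes were higher. The difference of *Hsp90ab1* (-0.16) was within the reading error, and that of *Hspa1a* was a bound. No interval between cultures could be given for any pair, so a small difference does not show that compounds act alike.

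**Figure D4:**
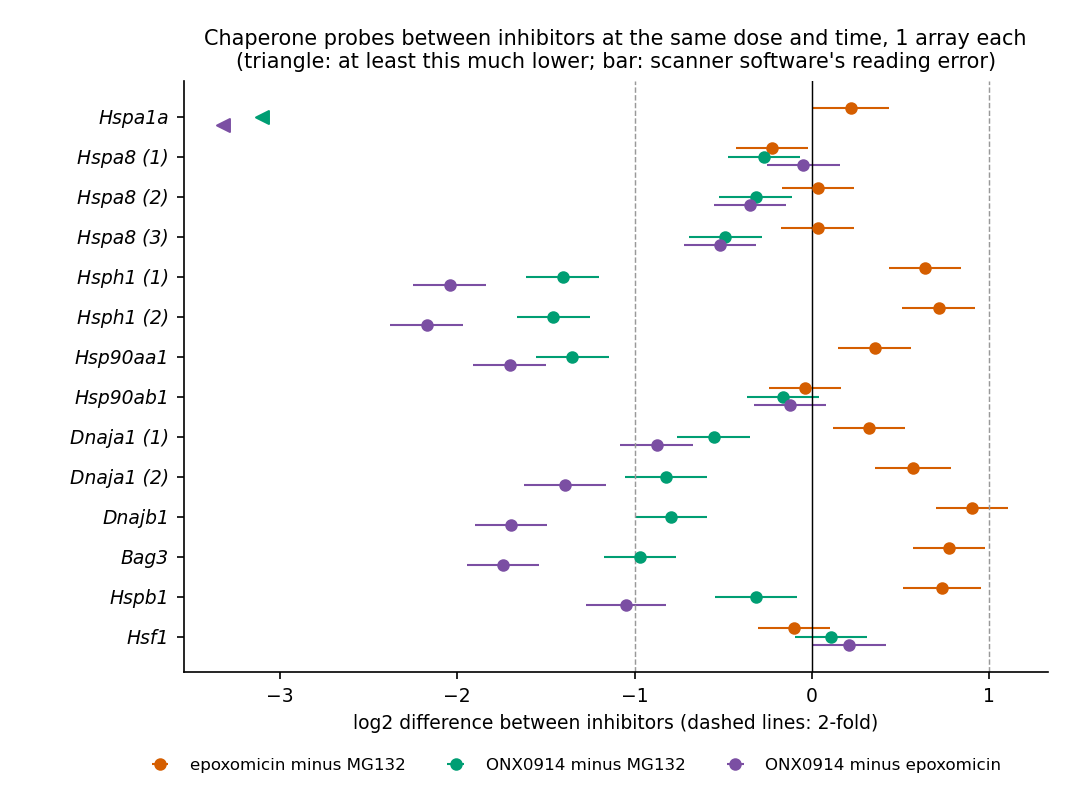
Log2 difference between inhibitors (x axis) for each chaperone probe (y axis), with epoxomicin minus MG132, ONX0914 minus MG132 and ONX0914 minus epoxomicin in separate colors, bars for the reading error of the scanner software, triangles for values at least this far below 0 and dashed lines at 2-fold. The probes of *Hsph1*, *Hsp90aa1*, *Dnajb1*, *Bag3* and *Hspb1* (-1.05) lie beyond the line for ONX0914 minus epoxomicin. So do the dim probe of *Dnaja1* (-1.39) and the bound of *Hspa1a*. No probe does for epoxomicin minus MG132.

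The other chaperones of the cell were set beside these 10 genes in 10 lists that hold 97 genes, of which 95 had a probe. With MG132, 6 of 84 tested genes were at least 2-fold higher, under epoxomicin 5 of 84 and under ONX0914 2 of 85, and 1 gene was lower with each inhibitor. The medians were 0.07, 0.01 and 0.12 on the log2 scale. These counts lie near the shares of 6.87%, 8.05% and 3.17% over all genes.

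Within the lists closest to the 10 genes, the other cytosolic Hsp70 and Hsp110 genes had medians of 0.64, 0.59 and 0.21 under MG132, epoxomicin and ONX0914. *Hspa2*, a further Hsp70, read 105 under DMSO, 289 under MG132, 391 under epoxomicin and 214 under ONX0914, and was the only gene of the lists at least 2-fold higher with all 3 inhibitors. *Hspa4l*, a relative of *Hsph1* chosen after its values were seen, differed by 1.11, 1.27 and 0.55. Of 11 other cytosolic J-domain genes and 6 genes of other BAG proteins and exchange factors, none reached 2-fold with any inhibitor. Here and below, the highest and the lowest gene of a list are those by the median of the 3 differences, and other genes can exceed them with a single inhibitor. *Dnajb2* was the highest of the J-domain genes by that median (0.77, 0.60 and 0.99) and *Dnajb4* the lowest (-0.14, -0.07 and -0.33). *Hspbp1* was the highest (0.13, -0.04 and 0.09) and *Bag4* the lowest (-0.47, -0.27 and -0.05) of the last group.

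Of the other heat-shock factors, *Hsf2* read 623 under DMSO, 1289 under MG132, 1141 under epoxomicin and 986 under ONX0914, with log2 differences of 1.20, 0.82 and 0.68. *Hsbp1*, which encodes a small protein that binds HSF1 trimers, was lower, with differences of -0.75, -0.80 and -0.15. Both moved further from DMSO than *Hsf1* did under MG132 and epoxomicin. *Hsf4* differed by -0.22, -0.38 and 0.01, and *Hsf5* and *Hsfy2* were above background on no array.

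Of 19 Hsp90 cochaperones, 1 was at least 2-fold higher under MG132 and under epoxomicin, and this was *Chordc1* (1.16, 1.35 and 0.82), named after its values were seen. *Ahsa2*, a relative of the Hsp90 activator *Ahsa1*, was well above background under DMSO only and lower by at least 4.33-fold under MG132, 4.38-fold under epoxomicin and 4.39-fold under ONX0914. Its signal was dim, at 85.9 under DMSO and between 11.0 and 16.2 on the other arrays. The medians of this list were 0.08, 0.00 and 0.10.

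The remaining lists had small median differences. TRiC chaperonin genes had medians of 0.30, 0.29 and 0.29, with *Cct6b*, a dim gene, highest by the median of its differences at 1.25, 1.04 and 0.64 and *Tcp1* lowest at -0.02, -0.02 and 0.23. Prefoldin genes had medians of -0.15, -0.02 and 0.00, with *Pfdn2* highest by the median of its differences (0.04, 0.03 and -0.11) and *Pfdn1* lowest (-0.35, -0.50 and -0.19). Small heat-shock proteins other than *Hspb1* had medians of 0.02, -0.01 and 0.01, with *Cryab* highest by the median of its differences (0.22, 0.49 and -0.16) and *Hspb6* lowest (-0.29, -0.56 and 0.23). *Hspb8*, named after its values were seen, was above background under ONX0914 alone, where it read 31.6 against 3.33 under DMSO. The difference is therefore a bound, at least 2.17-fold. Its place in the ONX0914 count of other chaperones rests on that array.

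No chaperone of the mitochondria reached 2-fold. *Hspd1*, which encodes Hsp60, was the highest by the median of its differences, with 63849 under DMSO, 94328 under MG132, 128421 under epoxomicin and 73413 under ONX0914 and differences of 0.72, 0.95 and 0.22, and *Dnaja3* was the lowest (-0.24, -0.38 and -0.09). *Hspd1* and its partner *Hspe1*, together with *Chordc1* and *Dnajb6*, were the 4 of 85 listed genes outside the 10 whose promoter window held the 3-repeat form. Of the 12 tested chaperones of the endoplasmic reticulum, *Dnajb9* alone was at least 2-fold higher under MG132 and epoxomicin (1.27, 1.72 and 0.32), *Dnajc10* was the lowest by the median of its differences (-0.83, -0.81 and -0.40), and the medians were -0.21, -0.28 and 0.16.

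**Figure D5:**
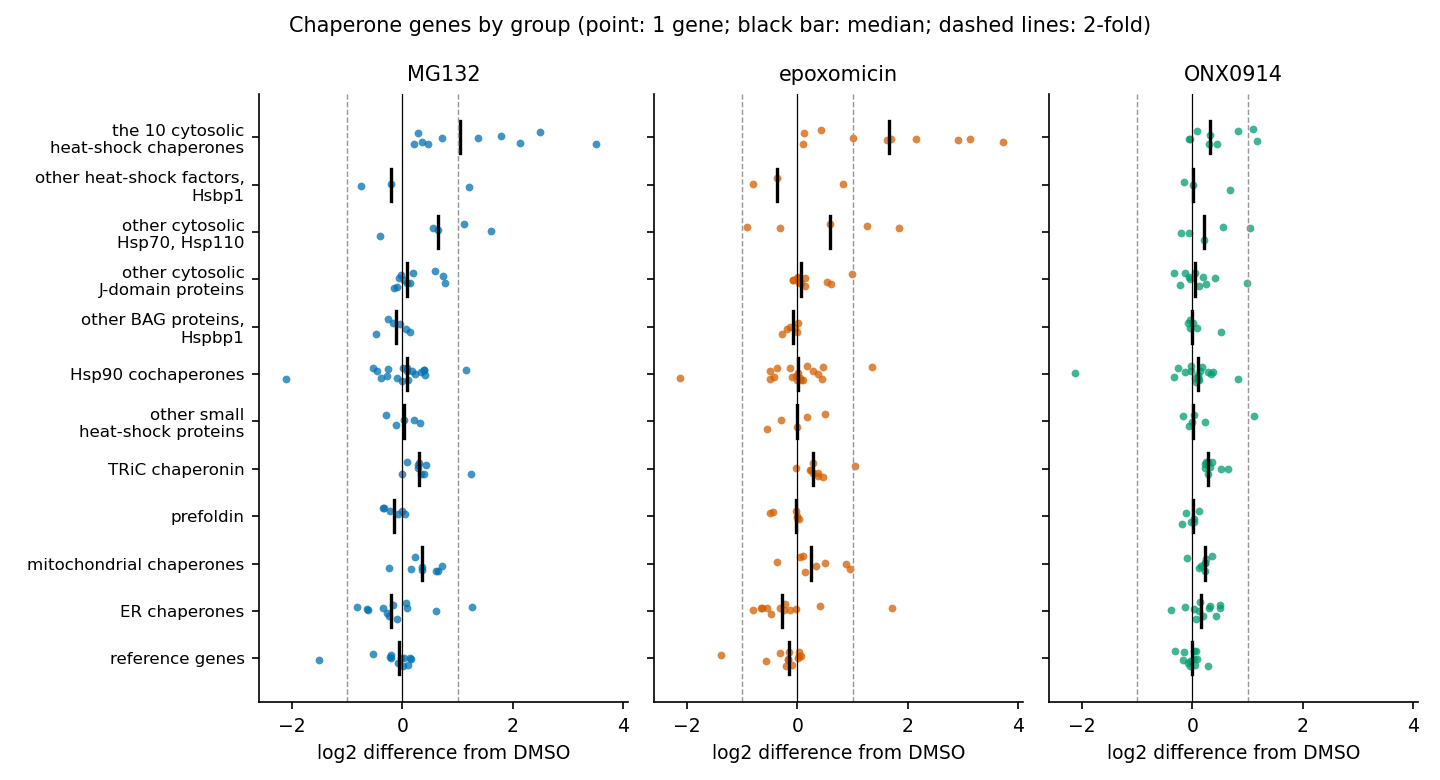
Log2 difference from DMSO (x axis) of every measured gene of the 10 cytosolic heat-shock chaperones, of 10 other chaperone lists and of the reference genes (y axis), in a panel for each inhibitor, with a point for each gene, black bars at medians and dashed lines at 2-fold. The medians of the top line are 1.05, 1.67 and 0.31, and those of the 12 reference genes are -0.05, -0.16 and -0.01.

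To see which genes had a pattern like the strongest of the chaperones, the 3 differences of *Hsph1* were compared with those of 12729 other genes by Euclidean distance on the log2 scale. The nearest were *Speer1* at 0.20, *Inhba* at 0.32, *Slc28a2b* at 0.38 and *Rgs1* at 0.39, and *Bag3* was the fifth at 0.44. *Bag3* was thus the only other of the 10 cytosolic chaperones among the 5 genes nearest to *Hsph1*. The likeness rests on 3 differences that share 1 DMSO array and carries no test.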

How the data were processed

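RNA of J774.1 cells was measured on 4 single-color Agilent arrays, 1 each for DMSO, MG132, epoxomicin and ONX0914. The authors deposited the scanner files (Feature Extraction 10.7.1.1), whose processed intensity is background-subtracted within an array and not scaled between arrays. They also deposited log2 values from GeneSpring, relative to the median of each probe. After centring on the probe median, these matched the values used here with a Pearson r of at least 0.999999 over 22417 probes. The Methods name a human design, but the file headers describe a mouse design with genome mm9, and probes were named through the RefSeq table of GRCm38.p6 by transcript accession (26581 of 39429 probes, 67.4%).

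Control spots and between 159 and 194 spots per array marked as outliers were left out, spots of one probe were averaged, and the log2 signal minus the 75th percentile of the array was compared between arrays. A gene was represented by its probe with the highest mean and was tested if either array of a pair had it well above background. A signal not well above background was replaced by the larger of itself and the lowest signal above background of its array, which gives a bound. A bound that pointed the wrong way gave no value. With 1 array per condition a gene counted as higher or lower at 2-fold, and no P value was computed. Precision between cultures could not be estimated from these arrays.

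The 10 genes, the lists of other chaperones and the markers were chosen with earlier results of these data known. Named in the text are all 10 genes, per list up to 3 genes at least 2-fold from DMSO in 1 direction with all 3 inhibitors or else the highest and the lowest, and the 5 genes nearest to *Hsph1*, with a few others said to be named after their values were seen. Features of the proteins were not analysed here, and 1 marker is not reported here. The calculations were tested on simulated data. Alternatives were normexp (offset 50), 5 other scalings, the deposited log2 table, the mean over the probes of a gene, the signal in place of a bound, a 4-fold threshold and 2 other filters. The differences between inhibitors were run only with quantile normalization, a shift to the array median and no scaling. Differences that changed by at least 0.0867 (the largest median SD between spots of one probe, 0.0613, times the square root of 2) were called moved, as were counts that changed by more than 1.5 times. Python 3.11.15, numpy 2.4.6, pandas 2.3.3, matplotlib 3.10.9, R 4.3.3 and limma 3.58.1 were used.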

Additional observations from a re-analysis of the deposited data

How the results depend on the processing

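Of 407 differences of single chaperone genes under an alternative, 313 stayed within the spread between spots of one probe, 93 moved further and 1 difference of at least 2-fold changed sign, that of *Hspb1* with epoxomicin, at -0.53 under normexp. Many of the 313 could not move. The mean over probes leaves genes with 1 probe unchanged, and the signal in place of a bound changes *Hspa1a* alone. Under normexp with all spots, 26 differences moved and 1 of at least 2-fold, that of *Hspb1* with epoxomicin, changed sign. Leaving outlier spots out of that correction, an alternative chosen after seeing the data, gave 0.59. Differences under 2-fold that changed sign and moved were those from DMSO of *Hspb1* with MG132 (-0.84) and *Dnajb1* with ONX0914 (0.15) under normexp, of *Hspb1* with ONX0914 (0.21) without outlier spots and of *Hspa8* with ONX0914 (-0.10) with the reference gene median, and, unscaled, those of *Hsp90ab1* (0.17) and *Hsf1* (0.11) between epoxomicin and MG132. *Hspa1a* had no value under normexp, because its bound pointed the wrong way. Some alternatives moved the median of all genes by over 0.1 on the log2 scale, namely normexp (-0.22 with MG132, -0.23 with epoxomicin and -0.13 with ONX0914), no filter (0.14 with MG132 and with epoxomicin), no scaling (-0.15 with MG132) and the reference gene median (-0.18 with ONX0914). The share of all genes at least 2-fold higher was 3.44%, 4.15% and 1.42% under normexp with MG132, epoxomicin and ONX0914, and 4.27%, 4.86% and 1.55% without outlier spots.

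The median of the 10 genes with MG132 moved to 1.21 with the mean over probes, 0.90 without scaling, 0.93 under normexp (over the 9 genes with a value) and 1.58 with the probe of the lowest mean, also chosen after seeing the data. With epoxomicin it moved to 1.77, 1.85 and 1.88 under mean over probes, normexp and lowest probe, and with ONX0914 to 0.44, 0.46 and 0.44, and to 0.13 with the reference gene median. Without scaling, the median of epoxomicin against MG132 was 0.55 and that of ONX0914 against MG132 -0.54. Without genes not above background on every array, also added after seeing the data, the median was 0.73 with MG132. At 2-fold, 4 and 5 of the 9 genes with a value were higher with MG132 and epoxomicin under normexp, and 6 of the 10 genes with epoxomicin without outlier spots. At 4-fold, 3, 4 and 0 of the 10 genes were higher with MG132, epoxomicin and ONX0914, while 1.88%, 2.33% and 0.79% of all genes were. With the reference gene median, the ONX0914 count was 0. Of the other listed chaperones, 0 were higher at 4-fold with each inhibitor, 2 under normexp with MG132, and with ONX0914 0 under normexp with or without outlier spots, 0 with the reference gene median and 1 with genes above background on all arrays. The cause of these changes was not tested. No paired analysis was possible because each condition has 1 array.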
